A study of Mus musculus with 6 samples.

Results

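The genes described are sodium channel subunits and connexins, which carry the electrical impulse of the heart, and number 8 of the 43629 genes in the files. They are the connexin genes Gja1, Gjc1, Gja5 and Gja3, the sodium channel alpha subunit genes Scn10a and Scn4a, and the beta subunit genes Scn3b and Scn4b, each found in every sample by its Ensembl identifier. The genes were listed by name and not by a limit on a measured value, but earlier results of these data were known when they were chosen. RNA-Seq was done on primary cardiomyocytes from the heart ventricles of CD-1 mouse embryos at embryonic day 13.5, with the ventricles of a litter pooled and the cells sorted with magnetic beads against VCAM1. The 3 control cultures received 12 nM of AllStars negative siRNA and the 3 knockdown cultures 12 nM of DNMT1 siRNA, a pool of several siRNAs against the maintenance DNA methyltransferase, and RNA was taken 72 h later in both groups. All 6 cultures therefore carry a lipid transfection, and no untransfected culture was analysed here. The titles of the knockdown samples name DNMT1, whereas a treatment tag on them names DNMT3a, and the titles were followed.

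Voltage-gated sodium channels open at the start of the action potential and carry the inward current that drives its upstroke. The alpha subunit forms the pore, and the beta subunits are small membrane proteins that adjust gating and surface level. The current then passes to the next cell through gap junctions, each built of connexin hexamers from both cells. In the embryonic ventricle Gja1 and Gjc1 are the connexins of the working and the early myocardium, and Gja5 marks the trabecular layer and later the Purkinje network.

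With DNMT1 siRNA, transcripts of Gja1, Gja5, Gja3 and Scn10a rose past both limits of the test, by 1.71-fold to 3.24-fold. Gjc1, the other connexin with a high level, stood at nearly the same level in both groups. Scn3b and Scn4b had means about 1.5-fold higher with DNMT1 siRNA and did not pass the test. Scn4a was too low to be tested. Of the 7 genes tested, 4 rose and 0 fell, beside 6.49% of all 15470 tested genes that passed, 4.26% risen and 2.23% fallen. As the 7 were chosen with earlier results of these data known, this comparison is not a test of them as a set. At a stricter FDR below 0.01, which 2.71% of all tested genes passed, 1 of the 7 did, Gja1. The median log2 fold change of the 7 genes was 0.77, and that of all tested genes was -0.00491. A gene was said to rise or fall where the Benjamini-Hochberg adjusted p (FDR) of edgeR's quasi-likelihood test was below 0.05 and the fold change was above 1.5. Only Gja1 passed these limits whichever single culture was left out. Gja3 passed only with all 6 libraries, and the calls of Scn10a and Gja5 were lost without some of the cultures. Calls over all tested genes also fell when a DNMT1 siRNA culture was left out. They went from 659 risen and 345 fallen to between 255 and 316 risen and between 112 and 146 fallen. Without a control culture they were 630 to 823 and 345 to 472.

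Dnmt1, the targeted gene, had 3028 ± 367 normalized counts in the controls against 741 ± 65.8 after knockdown (SD, n = 3 per group). On the log2 scale the difference was -2.03 with a standard error (SE) of 0.109 (edgeR, FDR = 0.000192). Normalized counts are read counts divided by the effective library size of the culture relative to the geometric mean of the 6. Reads counted on genes numbered 27852412 to 35896018 in the control libraries and 13739561 to 16186310 in the knockdown libraries, so a low gene is measured with fewer reads after knockdown. Uniquely mapped reads outside annotated exons made up 14.6% to 17.51% in the controls and 24.41% to 31.95% with DNMT1 siRNA, without overlap (exact permutation test, two-sided, p = 0.1, the smallest that 3 cultures against 3 allow). The labels do not say that replicates came from separate litters, so p-values measure the spread between these cultures, part of which may be technical.

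**Figure D1:**
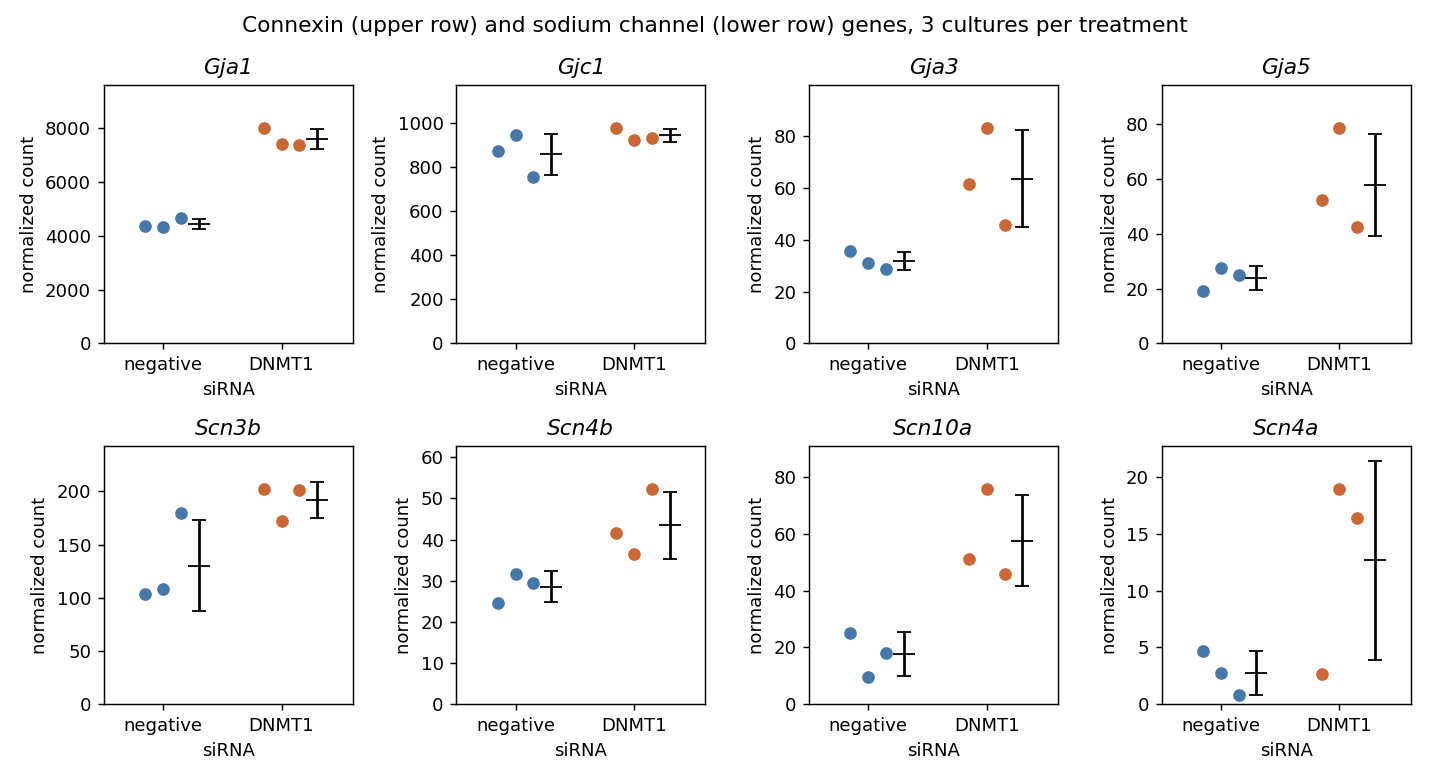
Normalized counts (y axis, from 0) of the 8 genes in each culture, connexins in the upper row and sodium channel genes in the lower row. Points are cultures in order of replicate number, blue for negative siRNA and orange for DNMT1 siRNA, with the mean and SD in black. All 3 DNMT1 siRNA cultures lie above all 3 controls for Gja1, Gja3, Gja5, Scn4b and Scn10a, whereas the groups overlap for Gjc1, Scn3b and Scn4a. Of all 15470 tested genes, 18.3% lie above all controls in this way.

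The stretches before the transcription starts of the 3 connexin genes that rose are shown because DNMT1 acts on CpG sites and these genes differ widely in the number of CpGs there. Sequences are from RefSeq (GRCm38.p6), read 5′ to 3′ on the strand of the gene, and capitals mark CpGs. DNA methylation of these sites was not analysed here. Gja1 lies on the plus strand of chromosome 10 at chr10:56377330-56402513, and the 250 bases printed for it, chr10:56377050-56377299, hold 6 CpGs. Gja5 lies on the plus strand of chromosome 3 at chr3:96904693-97077416, and its start in the RefSeq table lies inside that span, with the printed bases at chr3:97032152-97032401 and 7 CpGs. Gja3 lies on the minus strand of chromosome 14 at chr14:57034460-57058100, and the 180 bases printed, chr14:57058101-57058280, hold 12 CpGs and are the part of its window free of annotated exons.
Gja1: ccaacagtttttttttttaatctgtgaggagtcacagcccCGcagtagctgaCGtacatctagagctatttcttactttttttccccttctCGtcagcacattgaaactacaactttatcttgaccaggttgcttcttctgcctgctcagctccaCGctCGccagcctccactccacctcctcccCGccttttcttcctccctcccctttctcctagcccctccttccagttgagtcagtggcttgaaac
Gja5: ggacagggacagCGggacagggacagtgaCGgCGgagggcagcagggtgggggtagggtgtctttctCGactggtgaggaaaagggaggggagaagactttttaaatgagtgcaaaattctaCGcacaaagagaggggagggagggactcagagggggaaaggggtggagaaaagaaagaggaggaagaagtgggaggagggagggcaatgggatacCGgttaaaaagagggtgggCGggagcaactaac
Gja3: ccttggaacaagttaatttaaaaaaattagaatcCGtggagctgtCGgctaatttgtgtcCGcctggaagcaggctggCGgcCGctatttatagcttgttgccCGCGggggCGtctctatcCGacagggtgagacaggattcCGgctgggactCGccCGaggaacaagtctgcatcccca

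Over 32841 RefSeq windows of the same 250 bases, the median number of CpGs was 6. The window of Gja1 was therefore at the middle, with 49.6% of windows holding fewer. Gja5 was close to it, at 53.7%. The whole 250-base window of Gja3 held 26 CpGs, and 90.4% of windows held fewer. A second start of Gja3 had 29. Scn4b was also CpG-rich, with 23 (86.7%), whereas Scn10a had 8 (57%) and Scn4a had 4 (37.8%). The windows of these sodium channel genes overlap annotated exons and are not printed. Thus the 4 genes that rose include windows near the median and a CpG-rich one, and the table used here has no window for Scn3b or Gjc1. Short motifs were searched on both strands. The NK2 core AAGTG was in 40.7% of all windows and matched 1 time in the window of Gja5. TATAAA was in 12.4% of windows and matched 1 time in that of Gja3, and the T-box core GGTGTG, in 16.3% of windows, matched in none of these genes. Such matches describe letters and not binding.

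Gja1 (ENSMUSG00000050953), the main connexin of working ventricular myocardium, was the most abundant of the 8 genes. Its normalized counts were 4354, 4339 and 4646 with negative siRNA and 8009, 7418 and 7376 with DNMT1 siRNA. Every knockdown culture was far above every control, and the spread within each group was small. The means were 4446 ± 173.4 and 7601 ± 354.2 (SD, n = 3), with a log2 fold change of 0.77 (SE 0.0677; edgeR, FDR = 0.000837). Leaving out single cultures gave log2 fold changes between 0.71 and 0.81, all past both limits. Per length of exons, in FPKM (fragments per kilobase of exon, scaled to the effective library size), its level went from 19.96 ± 0.7783 to 34.13 ± 1.59 (SD, n = 3).

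Cardiomyocyte markers were set beside Gja1. Of 7 ventricular cardiomyocyte markers tested, 4 rose and 0 fell, and their summed normalized counts ranged from 29130 to 35020 in the controls and from 42900 to 51700 with DNMT1 siRNA. Their median log2 fold change was 0.77, as was that of Gja1. Tnnt2, which encodes cardiac troponin T, had a log2 fold change of 0.61 (edgeR, FDR = 0.0223), the smallest of the 4 that rose. Vcam1, the sorting marker, named after its value was seen, was lower in every knockdown culture, as were 17.7% of all tested genes. Its log2 fold change was -0.26 and did not pass the test (edgeR, FDR = 0.148). In bulk RNA, more cells of a type and more RNA per cell cannot be told apart, and the part of cell makeup in the rise of Gja1 was not tested.

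Gjc1 (ENSMUSG00000034520, minus strand of chromosome 11, chr11:102799579-102819700), the earliest connexin of the heart and later that of the nodes, had 870.7, 943 and 755.9 normalized counts in the controls. With DNMT1 siRNA it had 976.2, 922.7 and 929. The ranges overlap, and the control cultures varied more than the knockdown cultures. Its log2 fold change was 0.14 (SE 0.0936; edgeR, FDR = 0.37), and it stayed between 0.06 and 0.21 with any single culture left out. A rise of the size seen for Gja1 was thus not seen for Gjc1, and Gjc1 remained second to Gja1 among the 8 genes in both groups.

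The ratio of Gja1 to Gjc1 counts within a library needs no normalization between libraries. It was 5, 4.6 and 6.15 in the controls and 8.2, 8.04 and 7.94 with DNMT1 siRNA. The groups did not overlap, with means of 5.25 ± 0.803 and 8.06 ± 0.134 (SD, n = 3; exact permutation test, two-sided, p = 0.1, the smallest possible). After adjustment over the 5 ratios computed, chosen with the values known, p was 0.333. The other 4 ratios, of Gja5 and Gja3 to Gja1 and of Scn4b and Scn10a to Scn3b, overlapped between the groups, with exact permutation p between 0.2 and 1.

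Gja5 (ENSMUSG00000057123), the fast-conducting connexin of atrium, trabeculae and Purkinje fibres, was low. Its normalized counts were 19.26, 27.57 and 24.88 in the controls and 52.3, 78.71 and 42.52 with DNMT1 siRNA, from 26 to 54 reads per library. The groups did not overlap, and replicate 2 of DNMT1 siRNA was the highest. The log2 fold change was 1.28 (SE 0.295; edgeR, FDR = 0.0292). Leaving out single cultures gave 0.99 to 1.44, and the call was lost for 5 of the 6 cultures (edgeR, FDR up to 0.142, without DNMT1 siRNA replicate 2). The call was kept only without negative siRNA replicate 2. Gja5 shares 165 exonic bases with Gpr89 on the opposite strand, and the strand setting of the counting is not given in the sources used here, so reads there cannot be assigned to one gene.

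Gja3 (ENSMUSG00000048582), best known as a connexin of lens fibre cells, had 35.6, 31.02 and 28.77 normalized counts in the controls. With DNMT1 siRNA it had 61.68, 83.08 and 45.79. Again every knockdown culture was above every control, and replicate 2 of DNMT1 siRNA was the highest. The log2 fold change was 1.00 (SE 0.263; edgeR, FDR = 0.0444), close to the limit. The call was lost whichever culture was left out, with log2 fold changes of 0.75 to 1.16 (edgeR, FDR 0.0504 to 0.2), and with scaling to total counts in place of TMM (edgeR, FDR = 0.0511).

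**Figure D2:**
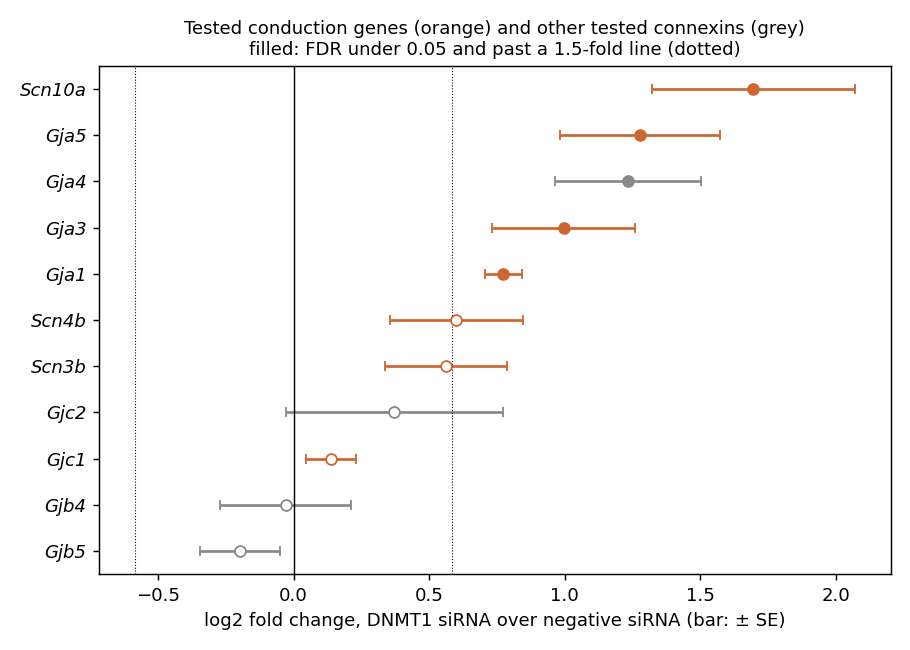
Log2 fold changes (x axis, DNMT1 siRNA over negative siRNA, bars ± SE) of the 7 tested conduction genes in orange and 4 of the 5 other tested connexins in grey. Filled points passed an FDR of 0.05 and a fold change of 1.5, whose limits are dotted. Scn10a has the highest value at 1.70, Gjb5 the lowest shown at -0.20, and Gja1 has the shortest error bar of the genes that passed.

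The remaining connexins were listed to see whether the family moved together. Of 16 other connexin genes, 5 passed the filter on low counts, of which 1 rose, 1 fell and 3 did not pass the test. Their median log2 fold change was -0.03. Gja4, a connexin of arterial endothelium, rose from 142 ± 56.13 to 332.7 ± 60.08 normalized counts (SD, n = 3), a log2 fold change of 1.23 (edgeR, FDR = 0.0241). Gjb5, a connexin of skin and placenta, had a log2 fold change of -0.20 (edgeR, FDR = 0.419). The tested connexins thus included increases, a decrease and genes that did not pass the test. Of the pannexins, channel proteins that resemble connexins, Panx1 alone was tested, with a log2 fold change of -0.47 (edgeR, FDR = 0.0522).

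Endothelial markers were set beside Gja4 and Gja5. Of 8 tested, 3 rose (Vwf, Emcn and Kdr) and 0 fell, and the summed normalized counts of the 9 markers ranged from 4841 to 5660 in the controls and from 7175 to 7706 with DNMT1 siRNA. Most of the sum was Eng, whose log2 fold change of 0.45 did not reach the fold limit (edgeR, FDR = 0.0185). Pecam1, Cdh5 and Tie1 overlapped between the groups and did not pass the test (edgeR, FDR = 0.136, 0.124 and 0.142). These 4 were named after their values were seen. Tek, an endothelial receptor gene named after its value was seen, was lower in every knockdown culture, as were 17.7% of all tested genes. Its log2 fold change of -0.35 did not reach the fold limit (edgeR, FDR = 0.0373). None of the 9 was at 0 in every culture. Of 5 atrial markers, listed because Gja5 is also an atrial gene, 2 rose and 0 fell, at summed counts of 4310 to 6217 and 7857 to 9424. The part of endothelial or atrial cells in the rise of these connexins was not tested.

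Counted per length and set against each other within a culture, the 9 tested connexins gave a makeup of the connexin transcripts. Gja1 held 53.59%, 47.83% and 54.73% of it in the controls and 58.64%, 56.44% and 60.18% with DNMT1 siRNA. The share was higher in every knockdown culture, by 6.37 percentage points on average (52.05% ± 3.701 and 58.42% ± 1.879, SD, n = 3; exact permutation test, two-sided, p = 0.1, the smallest possible). The share of Gjc1 went the other way, from 20.51% ± 1.984 to 14.86% ± 0.6008 (SD, n = 3), without overlap. Since shares add up to a whole, a rise of Gja1 and Gja4 lowers the share of a connexin that stays level.

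Gja5 took 0.4963% ± 0.06411 of the makeup in the controls and 0.7906% ± 0.2433 with DNMT1 siRNA (SD, n = 3), so it was the smallest part in the controls and took at most 1.069% in a knockdown culture. The share of Gja3 was 1.291% ± 0.1954 and 1.682% ± 0.4592 (SD, n = 3), and the groups overlapped. The share of Gja4 was 9.976% ± 3.368 and 15.49% ± 2.112 (SD, n = 3), also overlapping. The summed connexin level was 36.48, 40.73 and 38.12 FPKM in the controls and 61.33, 59.01 and 55.03 with DNMT1 siRNA. The whole was therefore larger after knockdown, 1.521 times on average (exact permutation test, two-sided, p = 0.1, the smallest possible). With the longest transcript as the length of each gene, the Gja1 share was 70.22% and 75.8%, a difference of 5.58 points.

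**Figure D3:**
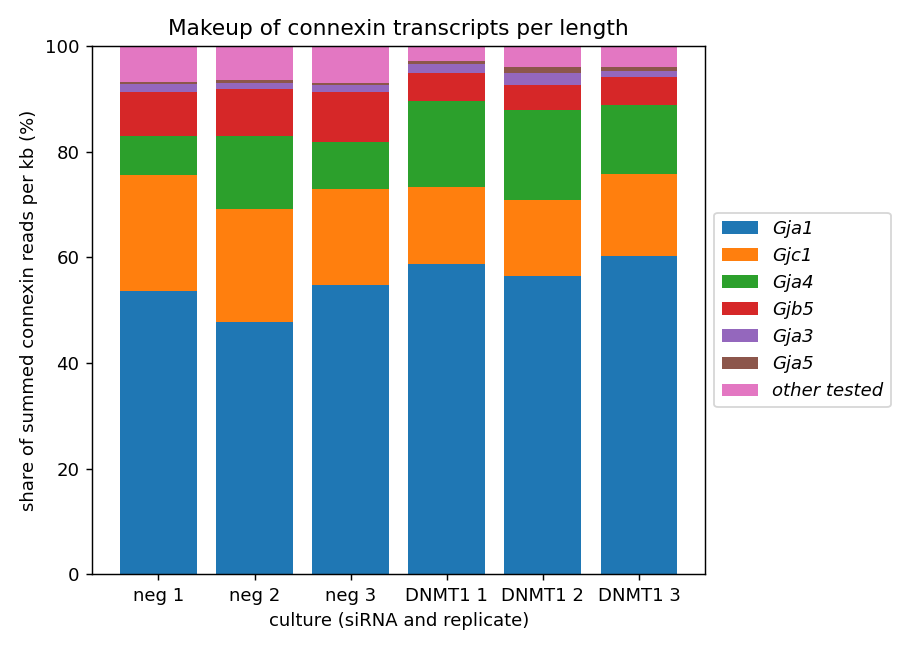
Share of each tested connexin in the summed connexin reads per kilobase of exon (y axis, percent) in the 6 cultures, 3 with negative siRNA (neg) and 3 with DNMT1 siRNA, with 1 colour per gene and the remaining 3 tested connexins as 1 band. The lowest band, Gja1, ends at 47.83% to 54.73% in the controls and at 56.44% to 60.18% with DNMT1 siRNA, and the band of Gjc1 above it is narrower with DNMT1 siRNA.

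Among the sodium channel genes, Scn10a (ENSMUSG00000034533, minus strand of chromosome 9, chr9:119608456-119719322) had the largest fold change. It encodes an alpha subunit best known from pain-sensing neurons. Its normalized counts were 25.09, 9.651 and 17.89 in the controls and 50.96, 75.8 and 45.79 with DNMT1 siRNA. All knockdown cultures were above all controls, and replicate 2 was the highest knockdown culture and the lowest control. The log2 fold change was 1.70 (SE 0.373; edgeR, FDR = 0.0244), a 3.24-fold increase on 14 to 52 reads per library. Leaving out single cultures gave 1.40 to 2.07, and the call was kept without negative siRNA replicate 1 or 2 and lost without each of the other 4 (edgeR, FDR up to 0.128).

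Markers of neurons and neural crest were listed because Scn10a is best known there. Of 4 tested, 0 rose and 0 fell, and their summed counts overlapped, at 1660 to 2786 in the controls and 1689 to 1829 with DNMT1 siRNA. Most of the sum was Tubb3. Prph, a gene of peripheral neurons named after its value was seen, was higher in every knockdown culture than in every control. So were 18.3% of all tested genes. The log2 fold change of Prph was 1.21 and did not pass the test (edgeR, FDR = 0.0967). Sox10, which defines neural crest cells, had 6 reads in DNMT1 siRNA replicate 2, where Scn10a was highest, and 0 or 1 in the other libraries. The part of such cells in the rise of Scn10a was not tested.

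Scn4a (ENSMUSG00000001027, minus strand of chromosome 11, chr11:106318592-106353288), the alpha subunit of skeletal muscle, had 8, 4 and 1 reads in the control libraries and 2, 13 and 10 in the knockdown libraries. It failed the filter on low counts and has no test in the table of 15470 genes. The increase was in replicates 2 and 3 of DNMT1 siRNA, and replicate 1 lay within the controls. Without the filter, over 31775 genes, the log2 fold change was 2.05 (SE 0.652; edgeR, FDR = 0.0205), which passes both limits in that fit alone. The summed counts of 6 skeletal muscle markers were 63.02 to 141.3 in the controls and 169.1 to 184.8 with DNMT1 siRNA, but only 1 of them could be tested, it did not pass, and Myog, Myod1, Myf5, Myf6 and Pax7, which define the lineage, were near 0. The part of such cells in the counts of Scn4a was not tested.

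A set of genes with little known use in the heart was taken to gauge the floor of these libraries, 1395 chemosensory receptor genes chosen after the values were seen. Their mean level per length was 0.0013, 0.00252 and 0.00157 FPKM in the controls and 0.000538, 0.00789 and 0.00749 with DNMT1 siRNA. The floor was thus higher in the same 2 knockdown cultures in which Scn4a was higher (0.0175, 0.124 and 0.107 FPKM with DNMT1 siRNA). Scn4a was 3.24 to 32.6 times this floor. In replicate 1 of DNMT1 siRNA, where the floor was the lowest of all 6 cultures, Scn10a, Gja5 and Gja3 were above every control. They stood there at 0.295, 0.419 and 0.959 FPKM. As multiples of the floor, Scn10a was at 111, 22.1 and 65.9 in the controls and 547, 55.5 and 35.3 with DNMT1 siRNA. Gja5 was at 118, 87.6 and 127, and at 778, 80 and 45.5. Gja3 was at 424, 191 and 285, and at 1780, 164 and 95. In replicates 2 and 3 of DNMT1 siRNA, no multiple of these 3 genes was above the highest control. The same held for Gja1, at 15000, 7720 and 13300 in the controls and 4220 and 4420 in those replicates. It also held for Gjc1, Scn3b, Scn4b and Scn4a, as each level is divided by a floor that was higher there. These multiples therefore do not set Scn10a, Gja5 and Gja3 apart. In those replicates the floor was 0.00789 and 0.00749 FPKM, and the lowest level of these 3 genes was 0.265 FPKM, of Scn10a. The part of the floor in the counts of these genes was not tested. In a comparison added after the values were seen, replicate 1 alone stood for DNMT1 siRNA. The log2 fold changes were then 1.52 for Scn10a, 1.12 for Gja5, 0.95 for Gja3 and 0.84 for Gja1. With 1 culture in a group, they are given without a test.

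Of the beta subunit genes, Scn3b (ENSMUSG00000049281, plus strand of chromosome 9, chr9:40269217-40291618) had 103.3, 108.2 and 179.6 normalized counts in the controls. With DNMT1 siRNA it had 202.5, 172 and 201.2. One control, replicate 3, was above the lowest knockdown culture, so the groups overlapped. Scn3b had a log2 fold change of 0.56 (SE 0.224; edgeR, FDR = 0.14), and without that control it was 0.86 and passed the test (edgeR, FDR = 0.0159).

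Scn4b (ENSMUSG00000046480, plus strand of chromosome 9, chr9:45138395-45154152), whose product links to the alpha subunit by a disulfide bond and affects resurgent current, had 24.51, 31.71 and 29.55 normalized counts in the controls. With DNMT1 siRNA it had 41.57, 36.44 and 52.34. The groups did not overlap, as for 18.3% of all tested genes in this direction. The log2 fold change was 0.60 (SE 0.247; edgeR, FDR = 0.15), on 25 to 46 reads per library. It did not pass the test, whichever culture was left out.

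Of 4 further sodium channel subunit genes tested, 0 rose and 0 fell. Their median log2 fold change was 0.18. Of 14 tested partners of sodium channels, 3 rose and 0 fell, at a median of 0.11. Fgf14 and Fgf13, intracellular fibroblast growth factor homologues that bind the alpha subunit tail, had log2 fold changes of 1.00 (edgeR, FDR = 0.0371) and 0.86 (edgeR, FDR = 0.0176). Ank3, the ankyrin that anchors sodium channels at the membrane, had 0.82 (edgeR, FDR = 0.00253). Atp1b1, a sodium pump subunit with the highest level of this list, had -0.21 (edgeR, FDR = 0.145).

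Per length, the order of the 8 genes in the controls was Gja1 (19.96 FPKM), Gjc1 (7.884), Scn3b (1.1), Gja3 (0.4942), Scn4b (0.2643), Gja5 (0.1916), Scn10a (0.1014) and Scn4a (0.01789). Neighbours in this order did not overlap over the 3 cultures. Scn4b and Gja5 were at 0.227 to 0.293 and 0.154 to 0.221, but with the longest transcript as length Gja5 (0.3001) stood above Scn4b (0.2643), so their order depends on the gene model. With DNMT1 siRNA, Gja1 (34.13), Gjc1 (8.677), Scn3b (1.618) and Gja3 (0.9873) kept their places. The next 3, Gja5 (0.341 to 0.631), Scn4b (0.337 to 0.484) and Scn10a (0.265 to 0.438), overlapped and have no order beyond their spread. Scn4a remained the lowest.

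Genes around the junction were listed next. Of 13 tested connexin partners and scaffold genes of the intercalated disc, 1 rose and 0 fell, at a median log2 fold change of 0.13. The gene that rose was Dsp, encoding the desmosomal linker desmoplakin (0.73; edgeR, FDR = 0.00319). The most abundant was Ctnnb1, beta-catenin (-0.19; edgeR, FDR = 0.135). Of those that did not pass both limits, the tyrosine kinase gene Src (-0.38; edgeR, FDR = 0.0112) and the drebrin gene Dbn1 (-0.28; edgeR, FDR = 0.0344) had an FDR below 0.05 with a smaller fold change, and Ccn3, a secreted partner of connexins, was at -1.26 (edgeR, FDR = 0.0576). All 3 were lower in every knockdown culture than in every control, as were 17.7% of all tested genes. They were named after their values were seen.

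Of 16 transcription factors known from the conduction system, 6 rose and 1 fell, at a median of 0.37. Among those that passed, the largest changes were in Hopx (1.37; edgeR, FDR = 0.0252), Irx3 (1.21; edgeR, FDR = 0.00974), Irx5 (0.92; edgeR, FDR = 0.0313) and Etv1 (0.89; edgeR, FDR = 0.0145). Irx3 and Etv1 are known for their part in the ventricular conduction network, and Hopx encodes a homeodomain protein without DNA binding of its own. The gene that fell was Tbx2, a T-box repressor of the slow-conducting canal myocardium (-0.78; edgeR, FDR = 0.0221), named here after its value was seen. Gata6, the most abundant, had 0.17 (edgeR, FDR = 0.289).

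Of 8 tested Purkinje and trabecular markers, 6 rose and 1 fell, at a median of 1.06. Those with the largest changes were Nppb (2.63; edgeR, FDR = 0.000321) and Nppa (1.65; edgeR, FDR = 0.0023), the natriuretic peptide genes, then Irx3, and Cntn2, a cell adhesion gene of the Purkinje network (1.21; edgeR, FDR = 0.0491). Slit2, a guidance ligand, fell (-0.72; edgeR, FDR = 0.00258) and was also named after its value was seen. Gja5, a marker of the same tissue, was also higher, but whether it moved with these genes was not tested. Irx3 and Etv1 are in this list and in that of the transcription factors. Bmp10, a trabecular gene too low to be tested, had 3.501, 6.204 and 2.333 normalized counts in the controls. With DNMT1 siRNA it had 0, 1.458 and 3.271. Calls over these lists and those above fell from 18 to between 5 and 9 when a DNMT1 siRNA culture was left out.

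Some markers of other cells in the cultures moved the other way. In the controls, the 7 ventricular cardiomyocyte markers ranged from 2.332 FPKM for Ryr2 to 100.2 FPKM for Tnnt2. The fibroblast collagen gene Col1a1 stood at 3542 FPKM, and Acta2, of the smooth muscle and pericyte list, at 1692 FPKM. RNA of other cell types was therefore also present in these sorted cultures. Of 6 fibroblast markers 0 rose and 2 fell, with summed normalized counts of 600200 to 908900 and 462300 to 489800. Of 8 smooth muscle and pericyte markers 0 rose and 1 fell, at 119300 to 177300 and 100600 to 104700. Of 5 epicardial markers 0 rose and 0 fell, and of 5 macrophage markers 1 fell, with overlapping sums for both lists. Red blood cell markers were at 11.03 to 61.22 over all cultures, and Hba-a1, Hbb-bt and Hbb-bs were at 0 in controls.

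The genes nearest to each conduction gene were sought by the root mean square difference of their mean-centred log2 CPM (library-scaled counts) over the 6 cultures. Nearest to Gja1 were Sorbs2 (0.0384), Mosmo (0.0463) and Crip2 (0.0507), where the median gene was at 0.434. For Gja5 they were Dpf3 (0.0951), Gm17552 (0.136) and Grip2 (0.162), beside a median of 0.68. Gja3 was nearest to Ttc39a (0.094), A630001G21Rik (0.123) and Nckap5 (0.138), beside 0.557. Only the 3 nearest of all 15470 tested genes were kept for each. That no other gene of the 8 is among them does not show whether these connexins moved together.

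For Gjc1 the nearest genes were Cox14 (0.0224), Atp5a1 (0.0324) and Gm5436 (0.0347), beside a median of 0.221. Scn10a was nearest to Glipr1 (0.171), Diras2 (0.182) and Ndst3 (0.193), beside 0.947, and its distances were the widest of the 7 tested genes. Scn3b was nearest to Aoc3 (0.0802), Tmem204 (0.0894) and Rpsa-ps10 (0.0934), beside 0.445. Scn4b was nearest to Cpne8 (0.0693), Bicd1 (0.0698) and 4930511M06Rik (0.0953), beside 0.389. These distances include the difference between the treatments, which the genes share.

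**Figure D4:**
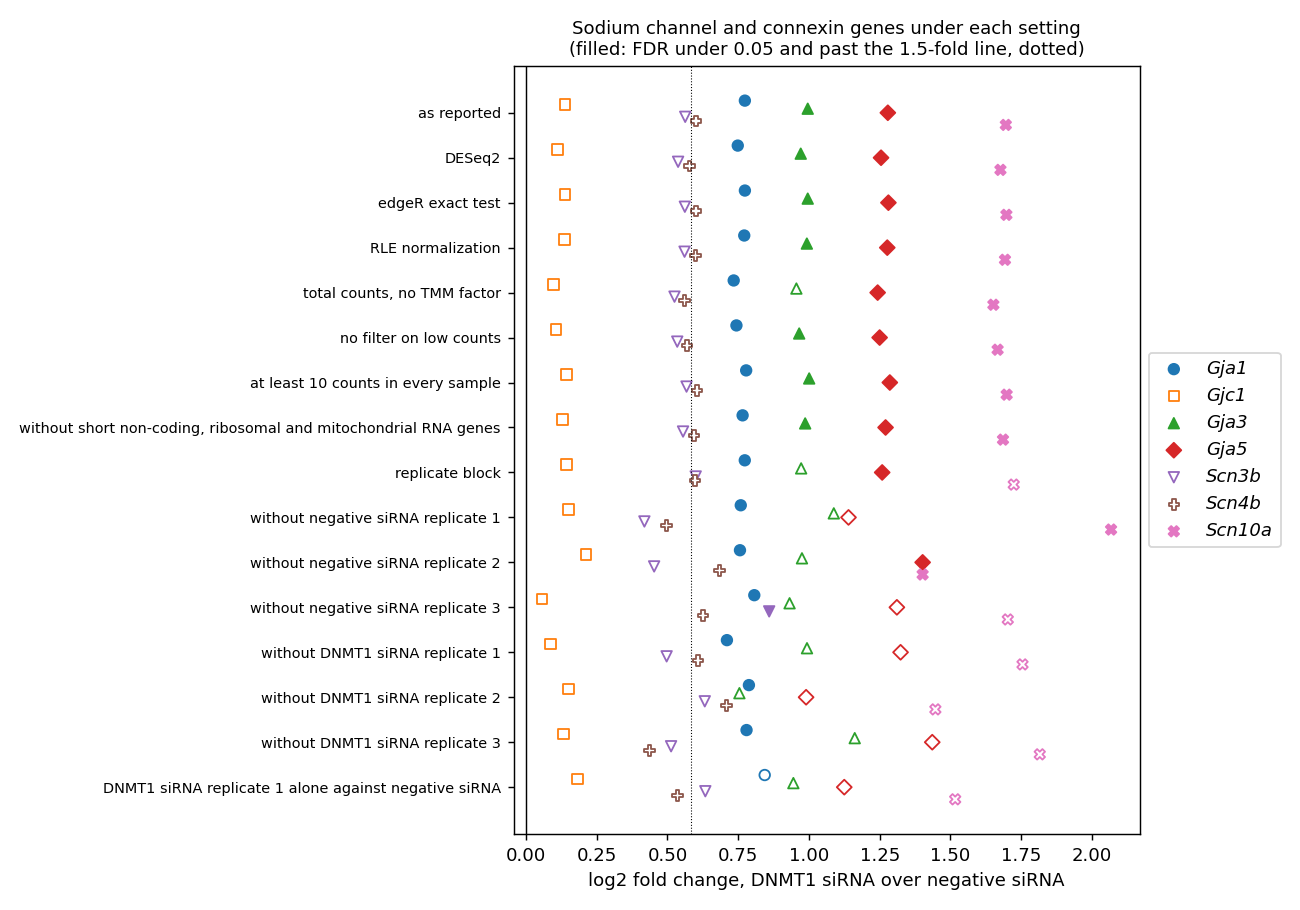
Log2 fold changes (x axis, DNMT1 siRNA over negative siRNA) of the 7 tested genes under each setting of the processing (y axis, as reported first), with filled symbols where the FDR was below 0.05 and the fold change above 1.5. All values are above 0. The last setting has DNMT1 siRNA replicate 1 alone, and its symbols are not to be read as a test. Gja1 is filled in every other setting, and Gja3 is open whenever a single culture is left out.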

How the data were processed

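RNA-Seq was done on 6 cultures, 3 per siRNA. The authors mapped poly(A) RNA reads to mm10 with TopHat2 and deposited raw HTSeq counts per Ensembl gene. Rows of the counter's own totals were left out. Counts were tested in R 4.3.3 with edgeR 4.0.16: filterByExpr (minimum count 10, minimum total 15), TMM, quasi-likelihood F test, no block, Benjamini-Hochberg adjustment over 15470 genes. The SE is the absolute log2 fold change over the square root of F. Lengths and positions came from GENCODE M21 (GRCm38), which holds 42462 of the 43629 genes. Shares and ratios were compared by exact permutation. DESeq2 1.42.0, edgeR's exact test, other scalings and filters, a replicate block and left-out cultures were alternatives. The code was tested on simulated data. No libraries were copies (chi-square over degrees of freedom 2.7 to 54.46). Members and lists were chosen with earlier results of these data known. Named genes were the 8 genes, Dnmt1, up to 4 called genes and the most abundant gene of each list, up to 3 called markers, and the 3 nearest genes. Some genes of these families and lists are not reported here.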

Additional observations from a re-analysis of the deposited data

How the results depend on the processing

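No log2 fold change of Dnmt1 or of the 7 tested genes changed direction under any alternative. Of the 7 tested genes, 4 passed with DESeq2, edgeR's exact test, RLE scaling, at least 10 counts in every sample and no short RNA genes, and these were the same genes; 3 passed with total counts (Gja3 0.96, FDR = 0.0511). With an FDR limit of 0.01, 1 passed. Leaving out single cultures left 1 to 3 genes called; of the lists of related genes it left 5 to 20 in place of 18, with 6, 5 and 9 without DNMT1 siRNA replicates 1, 2 and 3. In edgeR fits without a culture, the log2 fold change was 0.42 to 0.86 for Scn3b (stronger without negative siRNA replicate 3), 1.40 to 2.07 for Scn10a, 0.75 to 1.16 for Gja3 and 0.99 to 1.44 for Gja5. A fit with DNMT1 siRNA replicate 1 alone was added after the values were seen. Its log2 fold changes were 1.52 for Scn10a, 0.84 for Gja1, 0.95 for Gja3 and 1.12 for Gja5. That fit assumed that the lone culture varies like the controls, so no test of it is given. The causes were not tested.

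Replicate numbers were shared between the treatments, but same-numbered cultures did not deviate together (correlations 0.00637, -0.0208 and 0.0274), and 0 of 6 correlated best with their own number. With a replicate block, 2 genes passed, Gja1 and Gja5; Scn10a was at 1.72 (FDR = 0.0559) and Gja3 at 0.97 (FDR = 0.0694). Over all genes, edgeR called 659 higher and 345 lower, 513 and 285 with the block, 646 and 495 with DESeq2, and 994 and 701 without the filter. Reads limit Gja3, Gja5, Scn4b and Scn10a, with no more than 61 in any library, and for these a missing call does not show that the level was the same. The difference in reads outside exons was 12.87 points, and 11.53 to 15.3 with a culture left out.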
